A study of Mus musculus with 9 samples.

Results

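RNA from whole testes of 3-week-old mice was compared between 3 homozygous Piwil4 R264W/R264W animals, labelled KI-KI, and 3 heterozygous Piwil4 WT/R264W animals, labelled WT-KI. These 6 libraries, of 9 in the series, were taken by genotype label, and all 22337 genes of the table entered the comparison. The other 3 libraries, from wild-type testes (WT-WT), served to estimate how each gene moves with the stage of spermatogenesis. The allele was made by injecting guide RNAs and a single-stranded donor into C57BL/6 zygotes, so it is carried by every cell and not by a chosen cell type. The animals received no treatment, and nothing in the sources used here names litters or the number of founders. Whole testis holds Sertoli, Leydig, peritubular, vascular and immune cells beside the germ cells. The markers of each of these cell types were detected in the homozygous and heterozygous libraries.

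PIWIL4 (MIWI2) is a nuclear PIWI protein of fetal male germ cells, where PIWI-interacting RNAs guide it to young transposons whose promoters then become methylated. It is needed for the silencing of LINE-1 elements and for the meiosis that follows. In a juvenile testis the first wave of spermatogenesis is still advancing, with spermatocytes turning into round and then elongating spermatids. A testis in which that wave has come slightly further therefore holds more spermatid RNA than its neighbour of the same age.

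The residue that the allele changes lies in exon 7 of 20 of the transcript Piwil4-203 of GENCODE M21, at coding bases 790 to 792 of 2544. The reference codon is shown in capitals with its flanks, because it is the codon by which the genotypes are named. Other base changes of the donor are not given in the sources used here.
Piwil4 R264 codon: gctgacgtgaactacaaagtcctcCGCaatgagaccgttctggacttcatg
The codon reads as arginine, the R of R264W. The files hold counts per gene, so which allele was transcribed cannot be read from them. Piwil4 (ENSMUSG00000036912) had 31, 29 and 18 counts in the homozygous testes, 46, 20 and 40 in the heterozygous testes, and 38, 34 and 33 in the wild-type testes. The homozygous and heterozygous values overlapped. The log2 fold change of homozygous over heterozygous testes was -0.55 (SE 0.32, unadjusted p = 0.128), and its direction held with each library left out (from -0.79 to -0.41).

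The estimated counts of each of the 6 libraries summed to between 17964135 and 24279056. Where a gene had 0 counts, up to 3 could have been missed by counting error. Levels are given as CPM, a gene's counts relative to the TMM-scaled total of its library. Nothing in the labels says more of the animals than genotype and age, so p-values measure only the spread between testes. In the fit without stage, described below, that is the spread between these 6 testes. In the fit with stage it is the spread left after the stage term, and the wild-type testes enter it too.

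The stage of the first wave differed more within a genotype than between genotypes. A stage score was taken as the average log2 CPM over 20 genes of round spermatids, such as Acrv1 and Zpbp. It was 4.69, 5.30 and 6.45 in the homozygous testes. It was 5.86, 5.45 and 3.29 in the heterozygous testes, and 6.58, 4.62 and 3.76 in the wild-type testes. The ranges overlapped, and 1 heterozygous testis, replicate 3, was the least advanced of all 9. The homozygous mean was 0.61 higher, with a two-sided exact permutation p of 0.7, where 3 against 3 cannot go under 0.1. Without heterozygous replicate 3 the difference turned to -0.18. The first principal component of the 9 libraries held 66.0% of the variance, and 4673 of 15771 genes (29.6%) had a slope on the stage score after adjustment (edgeR, adjusted p under 0.05). In a whole testis, fewer cells of a type and less RNA per cell cannot be told apart.

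**Figure D1:**
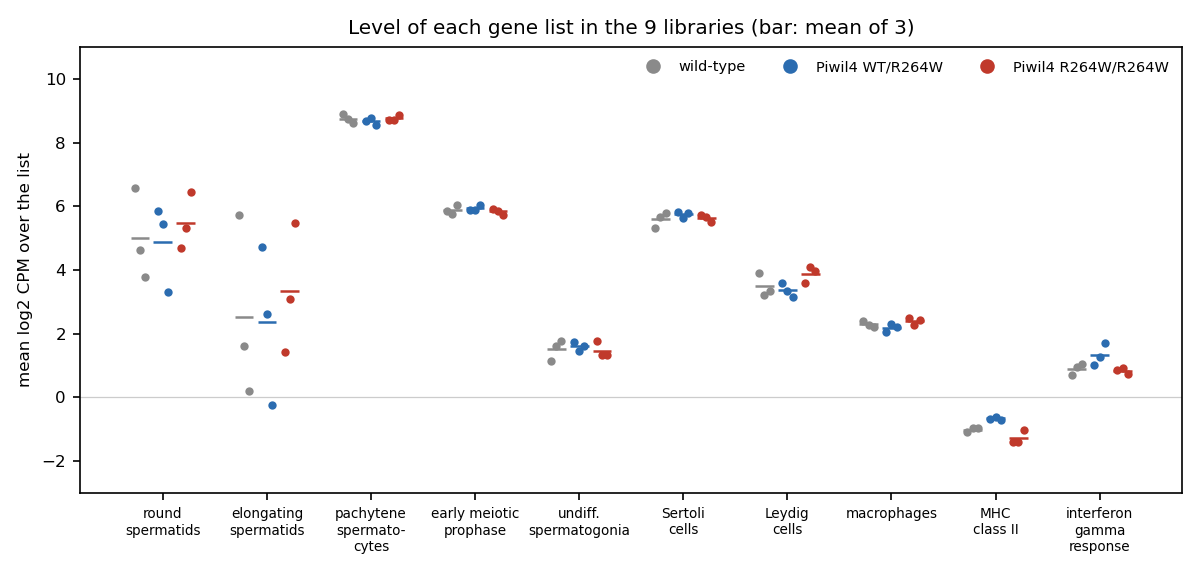
Mean log2 CPM (y axis) over the genes of 10 lists (x axis) in each of the 9 libraries, with a point per testis and a bar at the mean of 3. The spermatid lists spread widely within each genotype. The MHC class II list lies between -1.42 and -1.04 in homozygous testes and between -0.71 and -0.61 in heterozygous testes. Its wild-type range, from -1.10 to -0.97, overlaps the homozygous range and not the heterozygous one.

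Each gene was therefore fitted in 2 ways. The fit without stage used the 6 homozygous and heterozygous libraries. The fit with stage used all 9 libraries, with the stage score as a term beside genotype, and took the same contrast. The common biological coefficient of variation was 0.254 in the first fit and 0.105 in the second. With edgeR's quasi-likelihood F test and p-values adjusted by the Benjamini-Hochberg method, neither fit called a gene (0) under 0.05. The smallest adjusted p was 0.948 without stage and 0.216 with stage. DESeq2 called 6 genes (0.0388%) without stage and 2 (0.0127%) with stage at that threshold, of which 2 (0.0129%) and 1 (0.00634%) were over 2-fold. Col26a1 was over 2-fold in both. The other genes without stage were Gm45837, over 2-fold, and Fras1, Olfr986, Gm21897 and 4930486L24Rik, under 2-fold, and with stage Igf1. Of 15463 genes tested without stage, 343 (2.22%) had an unadjusted p under 0.05, 181 of them higher (1.17%) and 162 lower (1.05%) in homozygous testes. Of 15771 tested with stage, 502 (3.18%) did, 283 higher (1.79%) and 219 lower (1.39%). Both shares are below what a threshold of 0.05 passes on average when no gene differs. Any single call can therefore be false. As edgeR called no gene after adjustment, the genes below are described at an unadjusted p under 0.05, called "past the test" from here on.

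When a difference over 2-fold was asked for as well, 49 genes (0.317% of those tested) were higher and 20 (0.129%) lower in homozygous testes without stage. With stage, 68 (0.431%) were higher and 28 (0.178%) lower. The 2 fits shared 42 higher genes, which is 85.7% of the first list and 61.8% of the second, and 14 of the 20 and 28 lower genes. In 43 of the 49 higher genes and 17 of the 20 lower genes the homozygous and heterozygous testes did not overlap, against 516 (3.34%) and 576 (3.73%) of all genes tested, or 7.06% in either direction. The 49 and 20 genes were chosen from these same 6 libraries. Their lack of overlap largely follows from that choice and gives the calls no support. Many of these genes were weakly expressed: 13 of the higher genes had under 10 counts in every heterozygous library, and 8 of the lower genes had under 10 counts in every homozygous library. Without heterozygous replicate 2, 105 genes were higher and 40 lower without stage, and 135 and 91 with stage. Without homozygous replicate 1, 39 genes were lower without stage and 44 with stage. With stage, 48 were lower without homozygous replicate 2, and 112 were higher without heterozygous replicate 1.

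**Figure D2:**
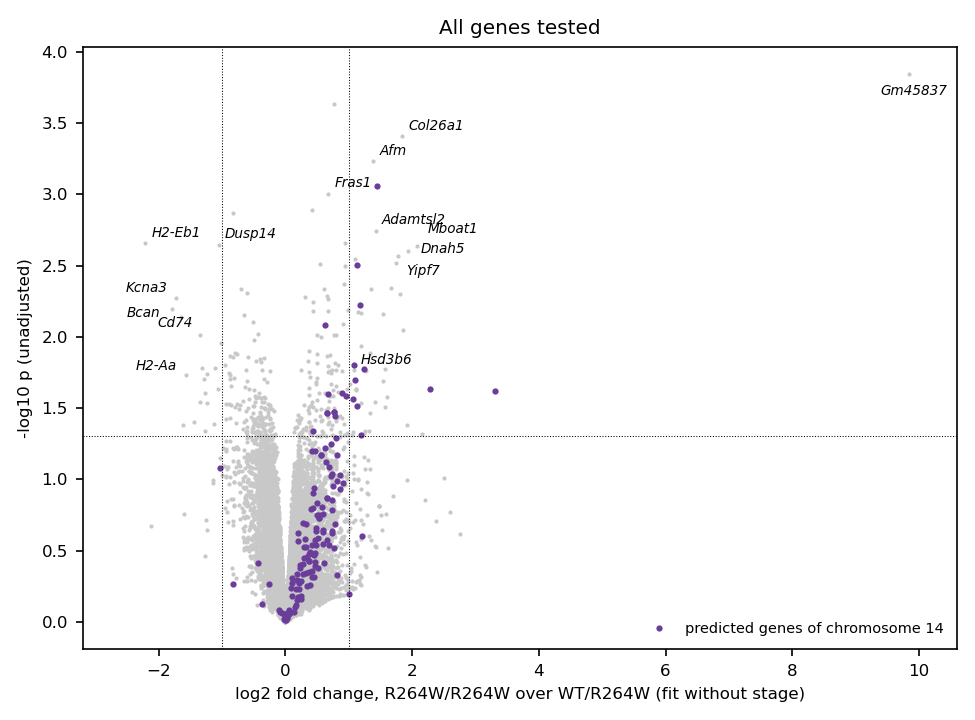
Difference between homozygous and heterozygous testes on the log2 scale (x axis) against -log10 of the unadjusted p from edgeR's quasi-likelihood test (y axis) for the genes tested without stage, with dotted lines at both limits. Predicted genes of chromosome 14 (purple) lie mostly to the right of 0, and the fitted 9.85 of Gm45837 stands against heterozygous counts of 0.

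Among the higher genes were 2 that code for extracellular proteins of the matrix. Col26a1 (ENSMUSG00000004415, chromosome 5), a collagen chain first described in testis and ovary, had 4.12, 3.18 and 5.29 CPM in homozygous testes, 0.897, 1.34 and 1.26 CPM in heterozygous testes, and 3.15, 2.01 and 2.61 CPM in wild-type testes. The heterozygous testes were the lowest of the 3 genotypes. Its log2 fold change was 1.85 (SE 0.28) without stage and 1.78 (SE 0.30) with stage, and it overlaps Gm20485 on its strand, so some reads could belong to that gene. Adamtsl2, a secreted ADAMTS-like glycoprotein that binds fibrillin and the latent TGF-beta complex, had 1.66, 1.84 and 1.25 CPM against 0.673, 0.503 and 0.578 CPM, with log2 fold changes of 1.43 (SE 0.29) and 1.46 (SE 0.35). Its wild-type testes, at 0.835, 1.13 and 0.917 CPM, lay between the other genotypes. Of 42 collagen chains tested, 2 were past the test upward and 1 downward without stage, and the median log2 fold change was 0.14. For all genes tested without stage, these shares were 1.17% upward and 1.05% downward. Col12a1, a fibril-associated collagen, was the other higher chain (0.93, SE 0.37), and its level rose with the stage score. Of 19 Adamts and Adamtsl genes tested, Adamtsl2 was the only one past the test in the fit without stage. Fras1, a basement membrane protein whose loss causes Fraser syndrome, was named after its values were seen because its change is under 2-fold. It had 23.8, 26.6 and 21.2 CPM in homozygous, 15.2, 14.1 and 15.6 CPM in heterozygous, and 15.0, 13.2 and 11.3 CPM in wild-type testes. All 3 homozygous testes were above the other 6. The gene overlaps Gm42605 on its strand. The log2 fold change was 0.68 (SE 0.12) without stage and 0.66 (SE 0.13) with stage, and the other 3 members of the Fraser complex tested without stage, Frem1, Frem2 and Grip1, were not past the test.

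Afm and Yipf7 were higher in both fits. Afm, which encodes afamin, a vitamin E-binding plasma protein of the albumin family, had 3.76, 5.51 and 4.21 CPM in homozygous, 1.79, 1.90 and 1.47 CPM in heterozygous, and 2.23, 1.62 and 0.772 CPM in wild-type testes. No homozygous value overlapped another genotype. Afm had a log2 fold change of 1.38 (SE 0.23) without stage and 1.26 (SE 0.29) with stage, and it stayed past both limits with each library left out of either fit. Afm was the only member of its 4-gene family with enough counts to be tested, with Alb at 0 to 3 counts in the 6 libraries and Gc at 0 in all of them. Yipf7, a Yip1-domain membrane protein, had 25, 21 and 28 counts in homozygous, 6, 6 and 8 in heterozygous, and 8, 5 and 0 in wild-type testes. The homozygous counts were again the highest. Its log2 fold change was 1.78 (SE 0.39) without stage and 1.59 (SE 0.59) with stage. In the fit with stage the call was lost without homozygous replicate 1 and without heterozygous replicates 1 or 2, with a lowest value of 1.18. The other 6 Yip1-domain genes were not past the test, with log2 fold changes from -0.17 to 0.05 without stage.

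**Figure D3:**
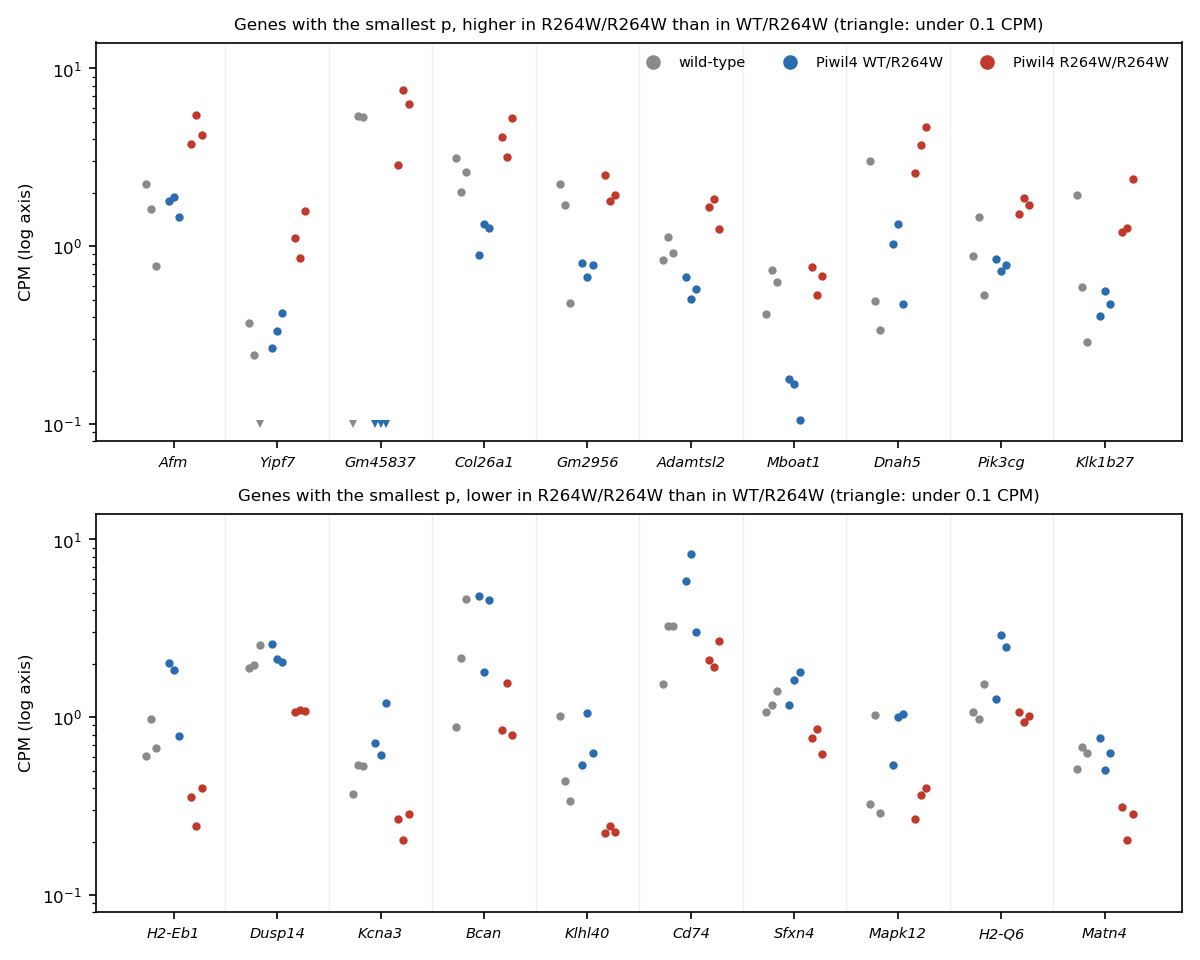
CPM on a log axis (y) of the 10 higher (upper panel) and 10 lower (lower panel) genes with the smallest p among non-overlapping genes over 2-fold, with a point per testis and triangles for values under 0.1 CPM. The homozygous and heterozygous points are apart in each gene by choice, and the wild-type points lie on either side or between.

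The other higher genes with the smallest p had varied roles. Dnah5, an axonemal dynein heavy chain, had 2.59, 3.71 and 4.67 CPM in homozygous testes and 1.03, 1.34 and 0.473 CPM in heterozygous testes. Wild-type testes ran from 0.338 to 3.02 CPM, the highest in the most advanced testis, and over the 9 libraries Dnah5 rose by 0.80 on the log2 scale per unit of stage score (adjusted p = 0.00135 in edgeR's test). At equal stage its log2 fold change was 1.61 (SE 0.36), against 1.94 (SE 0.41) without stage. Mboat1, a lysophospholipid acyltransferase, had 17, 13 and 12 counts against 4, 3 and 2, with log2 fold changes of 2.07 (SE 0.44) and 2.11 (SE 0.53). Wild-type testes had 9, 15 and 13 counts of Mboat1, all above the heterozygous counts. Pik3cg, the catalytic subunit of phosphoinositide 3-kinase gamma of leukocytes, had log2 fold changes of 1.10 (SE 0.24) and 1.07 (SE 0.39). The second was just under 2-fold without homozygous replicate 2 (0.98) or heterozygous replicate 2 (0.99). Klk1b27, a kallikrein-related serine protease, had 1.75 (SE 0.39) and 1.38 (SE 0.47), and came under the limits with stage when heterozygous replicate 1 was left out (0.88). Its counts are less certain, as 41.7% of the 31-base words in its transcripts occur in other genes. Ptgs1, the constitutive cyclooxygenase, had 45, 21 and 12 counts against 8, 6 and 10, with a log2 fold change of 1.78 (SE 0.46) with stage. The highest count came from homozygous replicate 1, where the epididymal genes Crisp1 and Adam7 had 883 and 177 counts. Without that library its log2 fold change without stage was 0.92.

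Igf1, a growth factor of Leydig and Sertoli cells, was named after its values were seen as 1 of the 2 genes that DESeq2 called with stage. It had 38.1, 43.3 and 37.2 CPM in homozygous testes and 27.4, 21.3 and 31.7 CPM in heterozygous testes. The groups did not overlap, although wild-type replicate 3 reached 37.6 CPM. That gave a log2 fold change of 0.56 (SE 0.16) without stage and 0.68 (SE 0.14) with stage.

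Gm45837, a predicted gene on chromosome 7, was present or absent by library. It had 64, 185 and 111 counts in homozygous testes and 0, 0 and 0 in heterozygous testes, but also 0, 111 and 111 in wild-type testes. Over a floor of 3 counts in each heterozygous library it was at least 36.4-fold higher. The gene overlaps Arap1, Mir139 and Pde2a on its strand, so its reads cannot be told apart from theirs with certainty.

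Predicted genes of chromosome 14 made up 11 of the 49 higher genes, a group noticed after the values were seen. The whole chromosome held 13 of the 49 with 649 genes tested. Of 190 predicted (Gm) genes of this chromosome in the table, 139 were tested without stage, 129 of them had a log2 fold change above 0, and their median was 0.46, beside 51.4% of all genes tested above 0 and a median of 0.01. None (0) was past the test downward. With stage, 132 of 146 were above 0 with a median of 0.32, and 6 were past both limits. In each of the 11 genes, 82.6% or more of the 31-base words in the transcripts occurred in another gene of GENCODE M21, so their reads could be split among copies and the 11 are not separate measurements. Many of the other genes tested also share most or all such words (Gm3182, Gm3500 and Gm6676 at 100%), so the 139 are not 139 separate measurements. Some share no such word with another gene (Gm11100, Gm45521 and Gm5142 at 0%). Gm2956, the one of the 11 with the smallest p, had 56, 44 and 34 counts in homozygous, 18, 12 and 15 in heterozygous, and 48, 35 and 10 in wild-type testes. Summed over the 139 genes, the level was 796, 927 and 972 CPM in homozygous, 770, 874 and 631 CPM in heterozygous, and 1040, 772 and 656 CPM in wild-type testes, so the sums overlapped. The sum was highest in wild-type replicate 1 and lowest in heterozygous replicate 3, the most and the least advanced testis by the stage score. Without heterozygous replicate 2, 25 members were past both limits upward and the median was 0.74. Without homozygous replicate 3, 4 were, with a median of 0.40. Without heterozygous replicate 3 the median was 0.29. With stage, 21 were past both limits without heterozygous replicate 2 and 3 without homozygous replicate 2, and without heterozygous replicate 1 only 103 of 149 were above 0, with a median of 0.18.

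Of 6 MHC class II genes tested, 3 (H2-Eb1, H2-Aa and Cd74) were lower in homozygous testes. Over all genes tested, 1.05% were past the test downward without stage and 1.39% with stage. These molecules present peptides to CD4 T cells and are made by dendritic cells, B cells and activated macrophages under the control of the coactivator CIITA. The promoters of their genes carry an X box and a Y box at a set distance. The promoters of H2-Eb1 and H2-Aa, 2 of the 3 lower genes, are shown from RefSeq (GRCm38.p6), with the Y box CTGATTGG and the X box core GCAACT in capitals.
H2-Eb1, chr17:34305617-34305916, plus strand: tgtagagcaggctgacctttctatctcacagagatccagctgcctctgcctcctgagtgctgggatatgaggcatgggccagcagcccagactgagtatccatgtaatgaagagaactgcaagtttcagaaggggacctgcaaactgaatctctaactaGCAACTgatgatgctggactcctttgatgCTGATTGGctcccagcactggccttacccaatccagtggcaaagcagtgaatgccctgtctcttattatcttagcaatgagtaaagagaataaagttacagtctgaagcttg
H2-Aa, chr17:34287774-34288073, minus strand: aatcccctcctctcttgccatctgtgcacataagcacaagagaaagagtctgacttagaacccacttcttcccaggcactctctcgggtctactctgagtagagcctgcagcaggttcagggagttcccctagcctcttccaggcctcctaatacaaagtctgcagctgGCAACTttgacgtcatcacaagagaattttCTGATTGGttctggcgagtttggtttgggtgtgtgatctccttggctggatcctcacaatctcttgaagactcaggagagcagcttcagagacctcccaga
Each window runs from 250 bases before to 50 bases after the gene's start, on the gene's strand. The Y box begins at -62 in H2-Eb1 and at -51 in H2-Aa, and the X box core at -91 and -81. Searched on both strands, CTGATTGG was found in 4.1% of 32851 promoters and GCAACT in 10.9%. Among the 8 class II genes with a promoter in the table, 4 held the first and 3 the second.

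H2-Eb1 (ENSMUSG00000060586, chromosome 17), the class II E beta chain, had 8, 6 and 7 counts in homozygous, 45, 33 and 15 in heterozygous, and 13, 20 and 14 in wild-type testes. The homozygous counts were the lowest, and 2 of the 3 heterozygous counts the highest. Its log2 fold change was -2.21 (SE 0.46, unadjusted p = 0.00219) without stage and -2.29 (SE 0.45, unadjusted p = 0.000192) with stage. Cd74, the invariant chain that guides class II molecules to the endosome, had 47, 47 and 47 counts in homozygous, 131, 148 and 57 in heterozygous, and 33, 67 and 68 in wild-type testes. Homozygous and heterozygous CPM did not overlap, but wild-type replicate 1 was lower than all. Its log2 fold change was -1.35 (SE 0.38) and -1.39 (SE 0.37), and -0.99, just under 2-fold, without heterozygous replicate 2 in the fit without stage. H2-Aa, the A alpha chain, had 18, 13 and 15 counts against 58, 55 and 16, with wild-type testes at 9, 27 and 21. Here heterozygous replicate 3 overlapped the homozygous testes in CPM. The log2 fold change was -1.57 (SE 0.51) and -1.61 (SE 0.50). Without stage it was no longer past the test without homozygous replicate 2 (-1.38), heterozygous replicate 1 (-1.42) or heterozygous replicate 2 (-1.24).

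Of 11 class II genes in the table, 6 had enough counts to be tested, and all 6 had a log2 fold change below 0 in both fits, with medians of -0.88 and -0.89. The other 3, H2-Ab1 (-0.41, SE 0.21), H2-DMa and H2-DMb1, were not past the test. With each library left out, 2 or 3 of the 6 were past the test downward without stage, and 3 or 4 with stage. Ciita had 1, 0 and 1 counts in homozygous and 0, 1 and 6 in heterozygous testes, too few to compare. The summed level of 8 dendritic cell markers was 19.4 to 22.9 CPM in homozygous and 18.9 to 22.4 CPM in heterozygous testes, that of 16 macrophage markers 151 to 179 and 149 to 162 CPM, and that of 16 lymphocyte markers 6.15 to 6.31 and 5.14 to 6.94 CPM. None of these markers was at 0 in all 6 libraries, but the dendritic cell sum rests on Flt3, Xcr1 and Zbtb46, while Itgax had 0 to 5 counts, Cd209a 0 or 1 and the B cell gene Cd79a 0 to 3. Of the 16 macrophage markers Itgam, the CD11b integrin, was higher in homozygous testes (0.97, SE 0.33, and 1.06, SE 0.34, in the 2 fits). It overlaps Gm49368 on its strand, and 68.1% of its 31-base words occur in other genes, so its counts are less certain. Without stage 14 of the 16 were above 0, with a median of 0.17, beside 51.4% of all genes tested. Of 3 dendritic cell and 4 lymphocyte markers with enough counts to be tested, none (0) was past the test. The part of these cells in the class II result was not tested.

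Of 23 tested genes induced by interferon gamma, 5 were also lower in homozygous than in heterozygous testes, but these calls changed with the library left out. The list holds the immunity-related GTPases and guanylate-binding proteins, which attack vacuoles of intracellular parasites, and MHC class I and its processing genes. Without stage, those past the test downward were 5 GTPase genes (Irgm1, Ifi47, Gbp2, Gbp6 and Gbp9). None (0) was past it upward, 22 of 23 had a log2 fold change below 0, and the median was -0.48. Over all genes tested without stage, 48.6% were below 0 and 1.05% past the test downward. With stage, 4 of 23 were past the test downward (Gbp2, Gbp6, Gbp9 and the transcription factor Irf1), beside 1.39% of all genes, and the median was -0.41. None of these was over 2-fold. The average log2 CPM over the list was 0.73 to 0.91 in homozygous, 1.02 to 1.69 in heterozygous and 0.71 to 1.04 in wild-type testes. The wild-type mean of 0.90 was closer to the homozygous mean of 0.84 than to the heterozygous mean of 1.32. Without heterozygous replicate 3, none (0) of the 23 was past the test in either fit, while 22 were still below 0 in each, with medians of -0.28 and -0.31. That testis had the highest counts of Iigp1 (132, against 24 to 49 in the other 5) and of Tgtp2 (39, against 4 to 18). Without homozygous replicate 2, only Gbp3 was past the test without stage and only Irf1 with stage. Without homozygous replicate 3, 2 were past the test without stage and 1 with stage. Without homozygous replicate 1, the counts were 3 and 2, and without heterozygous replicate 1, 6 and 2.

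Gbp2 and Irgm1 are shown for the interferon-stimulated response element in their promoters (RefSeq, GRCm38.p6, same windows), with matches on either strand to GAAA and GAAA separated by 2 bases in capitals.
Gbp2, chr3:142620413-142620712, plus strand: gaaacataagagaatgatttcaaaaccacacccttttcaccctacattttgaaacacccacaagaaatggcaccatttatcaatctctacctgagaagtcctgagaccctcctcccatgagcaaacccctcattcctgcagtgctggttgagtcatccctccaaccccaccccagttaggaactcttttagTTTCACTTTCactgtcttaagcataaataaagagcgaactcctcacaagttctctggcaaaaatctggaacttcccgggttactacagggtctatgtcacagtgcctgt
Irgm1, chr11:48871371-48871670, minus strand: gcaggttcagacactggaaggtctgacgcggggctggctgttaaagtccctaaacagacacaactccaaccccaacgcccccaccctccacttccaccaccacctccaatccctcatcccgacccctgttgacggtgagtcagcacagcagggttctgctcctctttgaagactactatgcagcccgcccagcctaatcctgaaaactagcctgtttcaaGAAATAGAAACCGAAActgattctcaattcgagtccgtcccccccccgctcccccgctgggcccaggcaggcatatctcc
The match begins at -59 in Gbp2, on the minus strand of the window. Irgm1 holds 2 overlapping matches, from -30 and -24. The motif was found in 10 of the 17 members with a promoter in the table and in 3.44% of all 32851 promoters. The gamma-activated site TTCNNNGAA was found in 8 of the 17 and in 8.3% of all. Of the other lower genes, Ifi47 held neither motif, and Irf1 held the gamma-activated site but not the response element. For Gbp6 and Gbp9 no promoter was available. Gbp2 had 1.92, 1.51 and 1.08 CPM in homozygous, 2.74, 2.23 and 3.36 CPM in heterozygous, and 1.35, 2.74 and 1.45 CPM in wild-type testes. Homozygous and heterozygous testes did not overlap, with a log2 fold change of -0.87 (SE 0.29) without stage and -0.76 (SE 0.31) with stage. Irgm1 had 2.46, 2.29 and 2.05 CPM against 2.74, 3.29 and 3.47 CPM, also without overlap, with values of -0.48 (SE 0.20) and -0.41 (SE 0.22). Gbp6 and Gbp9 share sequence with neighbours (74.2% and 18.3% of their 31-base words), so their counts are less certain. Of 12 type I interferon genes tested without stage none (0) was past the test. The median of these 12 was -0.24, and that of the 15 tested with stage was 0.09.

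**Figure D4:**
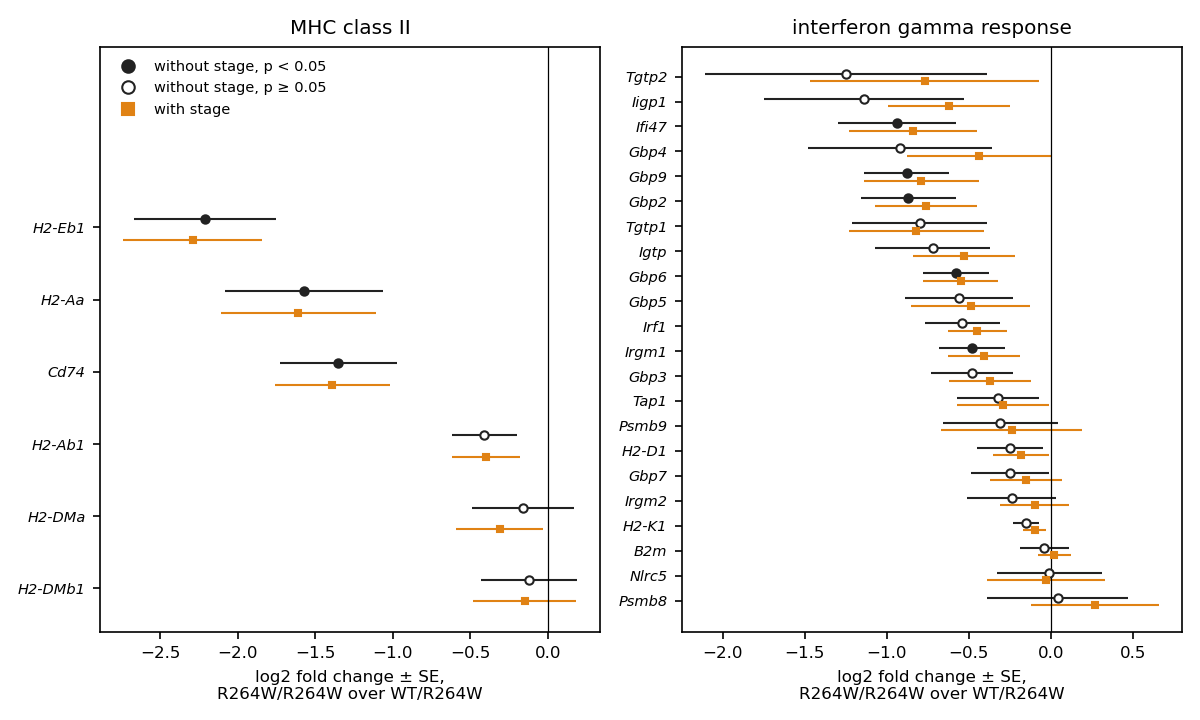
Log2 fold change of homozygous over heterozygous testes with its standard error (x axis) for the 6 tested MHC class II genes and 22 of the 23 tested interferon gamma genes (y axis), without stage (circles, filled at an unadjusted p under 0.05) and with stage (orange squares). H2-Eb1, H2-Aa and Cd74 lie furthest to the left of the class II genes in both fits.

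The remaining lower genes with the smallest p were single members of other families. Dusp14, a dual-specificity phosphatase that restrains MAP kinase signalling in T cells, had 1.07, 1.10 and 1.08 CPM in homozygous, 2.60, 2.12 and 2.05 CPM in heterozygous, and 1.90, 1.96 and 2.56 CPM in wild-type testes. The 3 homozygous testes lay below the other 6. The log2 fold change was -1.05 in both fits (SE 0.22 and 0.27), and without heterozygous replicate 1 it was -0.93 and -0.87, under the 2-fold limit. It was the only one of 22 dual-specificity phosphatases tested that was past the test in the fit without stage. Kcna3, the potassium channel Kv1.3 of lymphocytes, had 6, 5 and 5 counts against 16, 11 and 23 (log2 fold change -1.73, SE 0.43). Matn4, the matrix protein matrilin-4, had 7, 5 and 5 against 17, 9 and 12 (-1.24, SE 0.40). Klhl40, a muscle protein, had 5, 6 and 4 counts against 12, 19 and 12 (-1.64, SE 0.43). Bcan, the proteoglycan brevican, had 19, 38 and 14 counts against 107, 32 and 87, with wild-type testes at 19, 44 and 96. Its log2 fold change was -1.79 (SE 0.46) without stage and -1.57 (SE 0.46) with stage, where it was -0.69 without heterozygous replicate 1. Sfxn4 and Mapk12 were past both limits only in the fit without stage, and H2-Q6, a class Ib gene, in both (-1.12, SE 0.35, and -1.02, SE 0.36). As 50.3% of the 31-base words of H2-Q6 occur in other genes, its counts are less certain. H2-Q6 was not past the test without heterozygous replicate 2, at -0.87 without stage and -0.63 with stage, or, without stage, without homozygous replicate 2 (-1.06). Matn4 was not without homozygous replicate 2 (-1.06), and Mapk12 not without homozygous replicate 1 or heterozygous replicates 2 or 3 (from -1.19 to -1.14). Sfxn4 was not past both limits without homozygous replicate 3 or heterozygous replicates 2 or 3 (from -0.97 to -0.88).

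Spermatid genes showed what the stage score does. All 20 round spermatid genes had a log2 fold change above 0 without stage (median 0.42), and all 17 elongating spermatid genes (median 0.64), but none (0) was past the test. Over all genes tested without stage, 51.4% were above 0. Prm2, a protamine that packs sperm DNA, had 14, 58 and 827 counts in homozygous and 479, 32 and 0 in heterozygous testes, highest in the most advanced testis of each genotype. With stage, 12 of 20 and 2 of 17 were above 0, and the medians were 0.01 and -0.19. The score was made of the first of these lists, so its median near 0 is by construction. Without homozygous replicate 3 the medians without stage were -0.28 and -0.64. Without heterozygous replicate 1 they were 1.03 and 1.85, and without heterozygous replicate 3, 0.06 and 0.13. With stage, that of the elongating list was 0.19 without heterozygous replicate 1, where 6 genes were past the test upward. Without heterozygous replicate 2, 8 were past the test downward with stage. Pachytene spermatocyte genes (median 0.10 without stage) and early meiotic genes (-0.08) were not past the test (0 of 14 and 0 of 25).

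**Figure D5:**
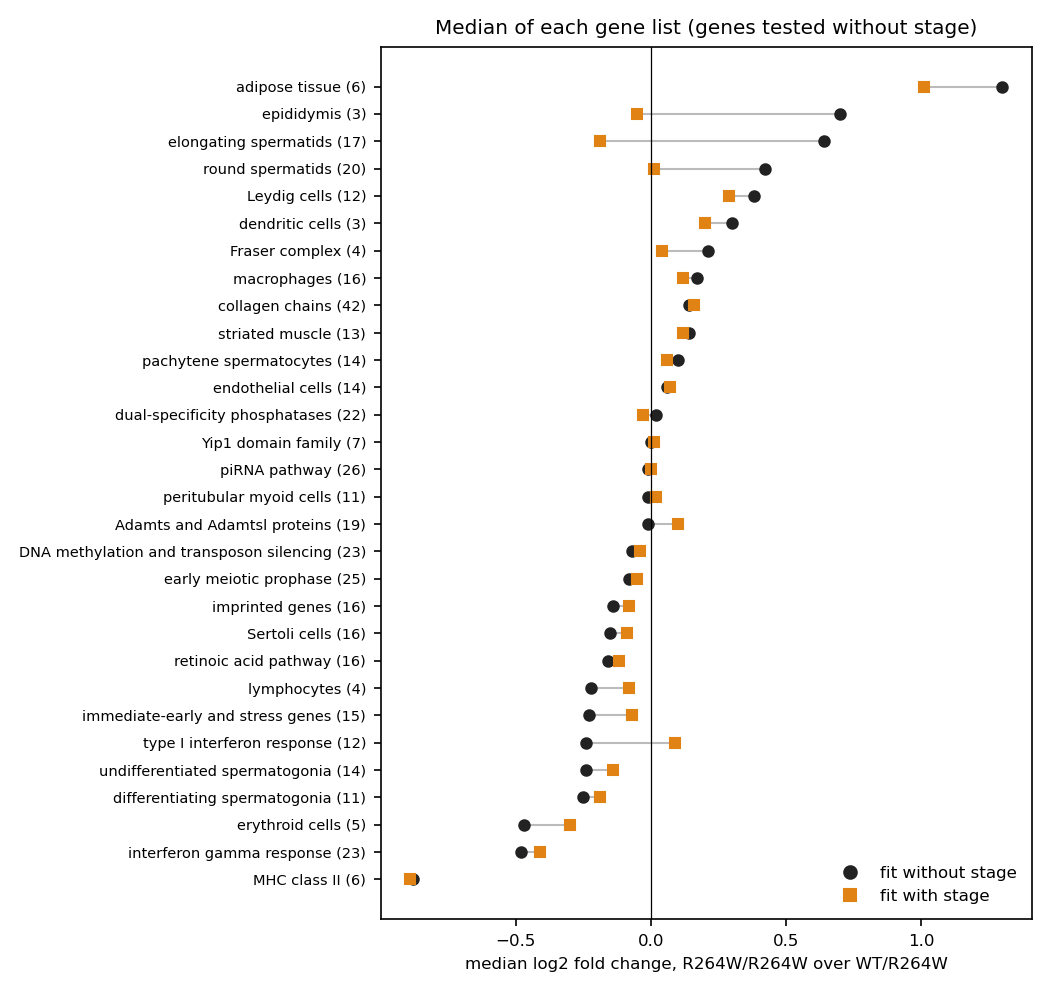
Median log2 fold change of homozygous over heterozygous testes (x axis) of each gene list with 3 or more tested genes (y axis, number of genes tested without stage in parentheses), without stage (black circles) and with stage (orange squares). The spermatid medians are 0.42 and 0.64 without stage and 0.01 and -0.19 with stage, while MHC class II stays at -0.88 and -0.89.

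Among spermatogonial genes, Ret and Nanos3 were lower and the rest of the list was not past the test without stage. For comparison with this and the next lists, 1.05% of all genes tested were past the test downward without stage and 1.39% with stage. Ret, the GDNF receptor of undifferentiated spermatogonia, had 3.62, 3.31 and 2.96 CPM in homozygous, 5.88, 4.13 and 5.20 CPM in heterozygous, and 2.78, 5.43 and 5.12 CPM in wild-type testes. Homozygous and heterozygous testes did not overlap, and the log2 fold change was -0.62 (SE 0.20) and -0.54 (SE 0.23). Nanos3, an RNA-binding protein of spermatogonial progenitors, had 8, 5 and 2 counts against 11, 12 and 12 (-1.35, SE 0.49), and this call was lost without homozygous replicates 2 or 3 or heterozygous replicates 2 or 3. It had too few counts to be tested with stage. Zbtb16 (PLZF) and Lin28a, other marks of these cells, had log2 fold changes of -0.26 (SE 0.16) and -0.30 (SE 0.24), and Id4 of -0.02 (SE 0.09). With stage Bcl6b, a GDNF-responsive repressor, was past the test upward (0.37), but with each library left out it stayed so in 1 of 9 fits, the one without heterozygous replicate 2. The median of the 14 genes tested without stage was -0.24, and that of the 13 tested with stage -0.14. Without heterozygous replicate 1 the median with stage was 0.00, with 8 of 14 genes above 0. Without homozygous replicate 1, 4 genes were past the test downward without stage, Zbtb16 and Foxo1 among them. Ret was not past the test without stage when homozygous replicate 3 or heterozygous replicate 1 was left out, nor with stage when heterozygous replicate 1 or any 1 of the homozygous replicates was. Of 11 genes of differentiating spermatogonia, Sohlh2 (-0.34) and Dmrt1 (-0.35) were past the test downward without stage. Of 16 retinoic acid genes, Crabp1 (-0.41, SE 0.17) and Rarg (-0.45, SE 0.19) were. With stage the retinoid-degrading Cyp26a1 joined them (-0.77, SE 0.35). Without homozygous replicate 2 or heterozygous replicate 1 no retinoic acid gene (0) was past the test downward in either fit, nor, without stage, without homozygous or heterozygous replicate 3. Without heterozygous replicate 2, 6 were without stage and 5 with stage.

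Of the Leydig cell genes, Hsd3b6 was higher in homozygous testes. Hsd3b6, the 3-beta-hydroxysteroid dehydrogenase of adult Leydig cells, had 1131, 1460 and 1157 counts in homozygous, 320, 723 and 538 in heterozygous, and 1311, 634 and 423 in wild-type testes. All 3 homozygous testes were above the heterozygous ones, but wild-type replicate 1 lay among them in CPM. The log2 fold change was 1.09 (SE 0.35) without stage and 0.90 (SE 0.33) with stage. Without heterozygous replicate 1 it was 0.78 without stage and 0.36 with stage, still past the test in both fits. Of 12 Leydig genes tested, Hsd3b6 was the only one past the test without stage, and Srd5a1, a steroid 5-alpha-reductase of immature Leydig cells, joined it with stage (0.47). Upward calls made up 1.17% of all genes tested without stage and 1.79% with stage. The medians of the Leydig genes were 0.38 and 0.29, and Hsd3b1, the form shared by fetal and adult Leydig cells, was at 0.00 (SE 0.14). Cyp17a1, a steroidogenic P450, ran from 225 to 2368 counts in homozygous and from 95 to 1266 in heterozygous testes and was not past the test (1.52, SE 1.14). It was past the test in both fits without heterozygous replicate 1. Without homozygous replicate 1, 3 Leydig genes were past the test upward without stage (Cyp11a1, Hsd3b6 and Srd5a1) and 4 with stage. Sertoli, peritubular and endothelial lists had medians of -0.15, -0.01 and 0.06 without stage, with no gene (0) past the test. With stage the Sertoli cell homeobox gene Rhox5 was (0.30).

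Genes of tissue next to the testis differed between single libraries. Crisp1, an epididymal sperm-coating protein, had 883 counts in homozygous replicate 1 and 0 in the other 2 homozygous testes, against 28, 78 and 5 in heterozygous testes. Adam7, also epididymal, had 177 counts there and at most 7 in the other 5. The muscle gene Mb had 59 counts in homozygous replicate 2 and at most 8 elsewhere. All 6 adipose genes tested without stage were above 0 (median 1.3), such as Fabp4 with 37, 58 and 77 counts against 4, 48 and 12, but none (0) was past the test. Of 3 epididymal and 5 erythroid genes tested, none (0) was past the test in either fit, with erythroid medians of -0.47 and -0.30. Of 13 muscle genes tested without stage, Klhl40 was past the test downward and Myh6, a cardiac myosin, upward (0.58). The part of these tissues in the results above was not tested.

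Genes of the piRNA pathway, to which PIWIL4 belongs, had a median near 0. Of 26 tested, Btbd18, a nuclear regulator of pachytene piRNA loci, was past the test downward without stage (-0.38, SE 0.15), Tex15, which acts with PIWIL4 in transposon methylation, joined it with stage (-0.24, SE 0.10), and the medians were -0.01 and 0.00. Among 23 genes of DNA methylation and transposon silencing, none (0) was past the test in either fit. Of 15 immediate-early and stress genes, Egr1 (-0.49, SE 0.17) and Ier2 (-0.50, SE 0.14) were past the test downward without stage. Downward calls made up 1.05% of all genes tested without stage and 1.39% with stage. No imprinted gene (0 of 16) was past the test in either fit.

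Many genes were past both limits only in the fit with stage. That fit shared 42 of its 68 higher and 14 of its 28 lower genes with the fit without stage. Gm14151, Trp53tg5 and Nudt16l2, which the filter removed from the fit without stage, had counts almost only in the most advanced testis of each genotype. Trp53tg5 had 0, 0 and 59 counts in homozygous, 64, 8 and 0 in heterozygous, and 120, 0 and 0 in wild-type testes. Its log2 fold change was -0.06 (SE 1.78) without stage, where it had too few counts for the filter and was fitted without it, and -3.25 (SE 0.49) with stage. Such a step is not a straight line in the stage score, and without heterozygous replicate 1 the fold changes of Gm14151 and Nudt16l2 turned positive. On the Y chromosome, Gm21650 was higher (1.77, SE 0.48), with 23, 24 and 18 counts against 5, 9 and 2, and Gm20906 had 0, 0 and 0 counts against 16, 27 and 0. Wild-type testes had 30, 14 and 19 counts of Gm21650 and 20, 8 and 8 of Gm20906. Both share nearly all their sequence with other Y genes (98.9% or more of 31-base words), so their counts are uncertain.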

How the data were processed

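RNA-seq was made from whole testes (TRIzol RNA, VAHTS mRNA-seq kit, paired-end NovaSeq reads). The authors deposited estimated counts per gene, 89.2% of them whole numbers, and FPKM values from the same libraries. Their processing notes name fastp 0.18.0, StringTie 1.3.1, DESeq2 and the build mm39. The aligner, annotation and strand setting are not given in the sources used here. Counts were rounded and tested with edgeR 4.0.16 (R 4.3.3): TMM scaling, filterByExpr and the quasi-likelihood test, with Benjamini-Hochberg adjustment over all genes tested. The residual degrees of freedom were 4 without and 5 with stage. The stage score used a prior count of 1. Alternatives were DESeq2 1.42.0 and its size factors, other filters on low counts, limma 3.58.1 on log2(FPKM + 0.1) or log2(FPKM + 1) (mean FPKM 0.5 or more), a replicate block, other sets of libraries, other stage scores, and each library left out. Scripts were tested on simulated data. Named genes were Piwil4, Afm and Yipf7, the 10 higher and 10 lower with the smallest p in each fit (without stage, those whose groups do not overlap), DESeq2 calls over 2-fold, and list members past both limits or with the highest FPKM. Others were chosen after their values were seen. The comparison, lists and rules were chosen with earlier results of these data known. Genes were placed on chromosomes, and shared sequence was counted, with GENCODE M21, in which 99.5% of the genes were found. Its build is GRCm38, so no gene coordinates are given. Promoters are from RefSeq on that build. One gene of the interferon gamma list is counted with the list but not reported here by name.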

Additional observations from a re-analysis of the deposited data

How the results depend on the processing

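The numbers of genes past both limits (49 higher and 20 lower without stage, 68 and 28 with stage) depended on the filter on low counts, the unit and the libraries. Without a filter they were 101 and 58 without stage, and 135 and 57 with stage. With at least 10 counts in every library they were 17 and 7, and 20 and 6. With limma on log2(FPKM + 0.1) they were 29 and 11, and 26 and 15, and on log2(FPKM + 1), which understates changes of low genes, 5 and 1, and 3 and 2. DESeq2 gave 10 lower without stage, and 39 and 15 with stage. At an adjusted p under 0.05, where edgeR called 0, DESeq2 called 6 without stage and 2 with stage, and edgeR without a filter 6 with stage. With each library left out, without stage, 44 to 105 genes were higher and 14 to 40 lower, with 0 to 0 at an adjusted p under 0.05. With stage, 68 to 135 were higher and 35 to 91 lower, with 0 to 1 at that adjusted p. The difference in stage score ran from -0.18 to 1.11, and was -0.18 without heterozygous replicate 3. With each library left out, Gm14151 with stage ran from -6.64 to 2.72, Nudt16l2 with stage from -3.65 to 1.99 and Lin28a with stage from -0.28 to 0.14, each turning positive without heterozygous replicate 1, and Lin28a was 0.05 with the pachytene score. Without stage, Trp53tg5 ran from -0.65 to 0.56 and Nudt16l2 from -0.61 to 0.61, turning to 0.53 and 0.56 without homozygous replicate 1 and to 0.56 and 0.61 without homozygous replicate 2. Replicate numbers were shared by the genotypes, and nothing in the labels says whether they pair the testes. The deviations of same-numbered testes from their group means correlated at -0.64, -0.15 and -0.73. As testes of a genotype differ in stage, these values cannot tell whether same-numbered testes shared a litter or a batch. With the replicate block 39 genes were higher and 17 lower without stage, and 71 and 29 with stage, with 2 (Crisp1 and Gm45837) at an adjusted p under 0.05 with stage. Except where the filter or the number of libraries sets the count, the cause was not tested. With 3 testes a genotype and 6 to 45 counts a library for genes such as H2-Eb1, small changes of low genes were not detectable.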
